A study of Homo sapiens with 14 samples.

Results

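The comparison described here is that of WM266-4 melanoma cells given FOXD1 siRNA 1 with WM266-4 cells given a control siRNA. It rests on 6 of the 14 bead arrays of the series, 3 for each siRNA, chosen by their sample titles. Values are the authors' processed log2 signals. All named genes with a detection p-value under 0.05 on at least 2 of the 6 arrays were tested, which were 13775 of the 20044 genes named on the array. The series asks how FOXD1 acts in the dedifferentiation and drug resistance of melanoma, with CTGF (gene symbol CCN2) named in its title. No drug is named in the labels of these arrays.

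WM266-4 is a human melanoma line that carries a BRAF mutation, per the labels, and both groups share that background. The control cells received a commercial negative control, Stealth RNAi siRNA negative control hi GC. The treated cells received the oligonucleotide labelled siFOXD1–1. Total RNA was column-purified, treated with DNase and labelled with biotin. The labels give no dose or time after transfection and no scan or hybridisation batch beyond a replicate number from 1 to 3. Whether the replicates came from separate cultures is not stated, so each p-value reflects the scatter among these arrays, some of which may be technical. In bulk RNA, fewer cells of a kind and less RNA per cell cannot be told apart.

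FOXD1 is a forkhead transcription factor, a protein that binds DNA through a winged helix fold and is known for its part in kidney stroma and retina development. CCN2 encodes connective tissue growth factor, a secreted matricellular protein whose gene is a well-known target of YAP and TEAD and of TGF-beta signalling. An siRNA is a short RNA duplex, of which a strand is loaded into an Argonaute protein that cleaves transcripts with a matching site. The same strand can also lower other transcripts through partial matches to its seed (bases 2 to 8), in the way a miRNA does.

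The siRNA sequence is shown first because every change described was measured after its delivery. The labels give a single strand and do not say whether it is the sense or the antisense strand, so its reverse complement is shown as well. Bases 2 to 8 are in capitals in each.
strand in the labels: uACUGCUAggauuuccaauuguuaa
reverse complement: uUAACAAUuggaaauccuagcagua
The oligonucleotide has 25 bases with a GC content of 32.0%. The negative control is labelled hi GC, and whether a difference in GC content bears on the changes was not tested. Of 2370 human mature miRNAs in RefSeq, 0 share bases 2 to 8 with either strand. The position of the matching site in FOXD1 was not analysed here.

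FOXD1 itself was lower with siRNA 1. Its log2 signal was 6.97, 7.00 and 7.21 with control siRNA and 6.49, 6.50 and 6.63 with siRNA 1, for replicates 1, 2 and 3. Each siRNA 1 array lay below each control array, and FOXD1 was detected on 3 of 3 control arrays and on 1 of 3 siRNA 1 arrays. The difference was -0.52 on the log2 scale, a fold of 1.43 (SE 0.095, 95% confidence interval -0.73 to -0.31, limma adjusted p = 0.00286). The gene lies near the floor of the array, where the lowest detected log2 signal was 6.56 to 6.58. The authors' values have no background subtracted, so folds of dim genes are compressed: with normexp background correction FOXD1 differed by -1.37 (2.58-fold, adjusted p = 0.00291). FOXD1 lies on chromosome 5 and was read by probe ILMN_1704418.

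In the arrays labelled FOXD1 siRNA 2, which are used below for contrast, FOXD1 read 7.10, 7.14 and 7.06. These values lie among the control values. A label field of those arrays also names FOXD2 in place of FOXD1. The direct test of siRNA 1 minus siRNA 2 gave -0.56 for FOXD1 (interval -0.75 to -0.37, adjusted p = 0.00161).

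Of the 13775 genes, 2783 had an adjusted p under 0.05 (limma, Benjamini-Hochberg) and are referred to as called, which is 20.2%. Of these, 1457 (10.6%) rose and 1326 (9.63%) fell with siRNA 1, and the median change of all genes was 0.003. A change of at least 2-fold was seen in 234 called genes (1.7%), 121 higher (0.878%) and 113 lower (0.82%). The groups did not overlap for 4726 genes (34.3%). The share of genes called depended on signal: it was 2.74% below a mean log2 signal of 7, 35.7% from 8 to 9 and 19.1% from 11 up. Shares of gene lists given below stand beside all genes and are not matched for signal. Protein-coding genes were called in 21.3% of 12775 cases, lncRNAs in 6.62% of 408. Of 7946 detected probes that carry no single gene symbol, 422 were called (5.31%).

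**Figure D1:**
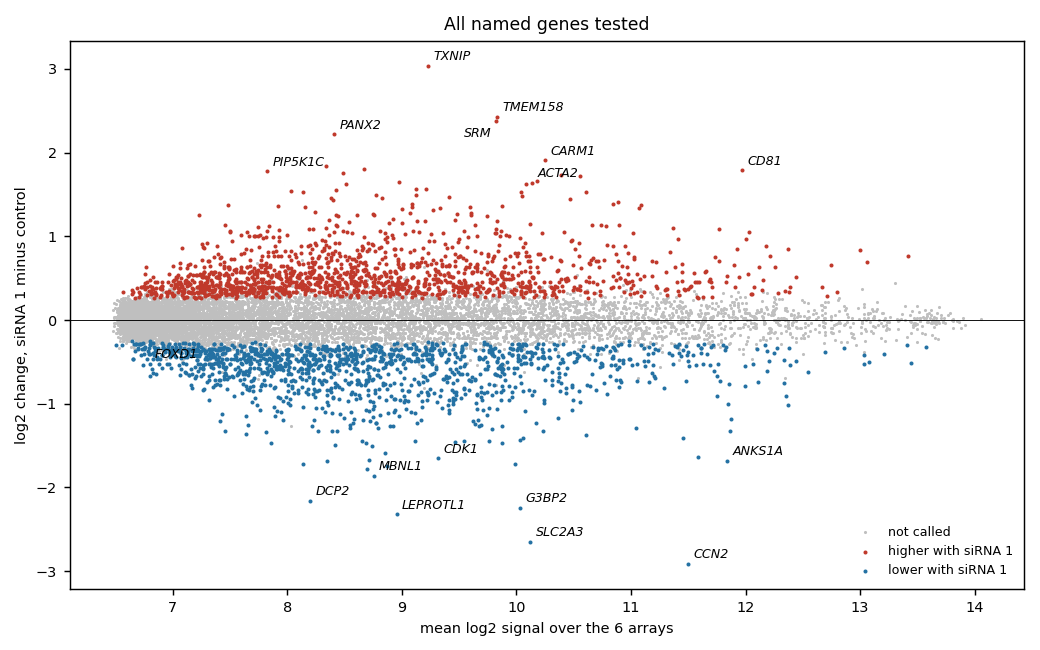
Log2 change (siRNA 1 minus control siRNA, vertical axis) against mean log2 signal over the 6 arrays (horizontal axis) for 13775 genes, with called genes in red (1457 higher) and blue (1326 lower) and the rest in grey. CCN2 at -2.91 and TXNIP at 3.04 lie farthest from 0, and FOXD1 lies at the dim end.

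Markers of melanocytic and of other cells were checked on the same arrays. Of 12 melanocytic markers, 11 were tested and 9 were detected on all 6 arrays, among them SOX10, TYR, MIA, PMEL and MITF. MLANA was detected on 0 of 3 control arrays and 2 of 3 siRNA 1 arrays. The tested markers were 3 of 8 for epithelial cells, 3 of 8 for leukocytes, 1 of 6 for endothelium and 6 of 8 for fibroblasts, and 0 of these 13 were called. PTPRC, CD3D, PECAM1, CDH5, KRT5, KRT8, CDH1 and COL3A1 did not pass the detection filter. Of the markers of other cells, COL1A2 (mean log2 signal 11.98 with control siRNA and 12.32 with siRNA 1), FAP (9.36 and 9.58) and CD68 (8.63 and 8.72) were well above the floor, and the other tested ones had means of at most 7.07 in either group. The part of such cells in the results was not tested. The summed log2 signal of the fibroblast markers was 47.8 to 48.5 with control siRNA and 48.5 to 48.6 with siRNA 1.

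CCN2, which the title of the series names, had the largest fall of the 1326 genes that fell by the authors' values. It had log2 signals of 12.90, 13.20 and 12.75 with control siRNA and of 10.10, 9.91 and 10.11 with siRNA 1. All siRNA 1 values lay more than 2 log2 units below all control values. The fall of 2.91 on the log2 scale is 7.52-fold (SE 0.119, limma adjusted p = 2.58e-07), and a second CCN2 probe gave -2.89. With background correction CCN2 fell 8.02-fold and DCP2 8.7-fold, so CCN2 was not the largest fall in that setting. CCN1, which encodes the matricellular protein CYR61, read 9.12, 9.71 and 9.44 against 8.14, 7.62 and 8.11 and fell 2.76-fold (adjusted p = 0.00015).

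CCN2 and CCN1 stand in a list of 24 measured targets of YAP, TAZ and TEAD, in which 3 rose, 3 fell and the median change was 0.03. YAP1, the coactivator itself and a member of the list, fell from 9.59, 9.53 and 9.51 to 8.54, 8.63 and 8.54 (1.96-fold, adjusted p = 2.55e-05). FJX1 (1.77-fold), GADD45A (1.83-fold) and MYOF (1.37-fold) rose. MYOF lost its call with background correction and without control replicate 3 or siRNA 1 replicate 2. Of the list as a whole, 25% of the members were called, beside 20.2% of all genes.

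**Figure D2:**
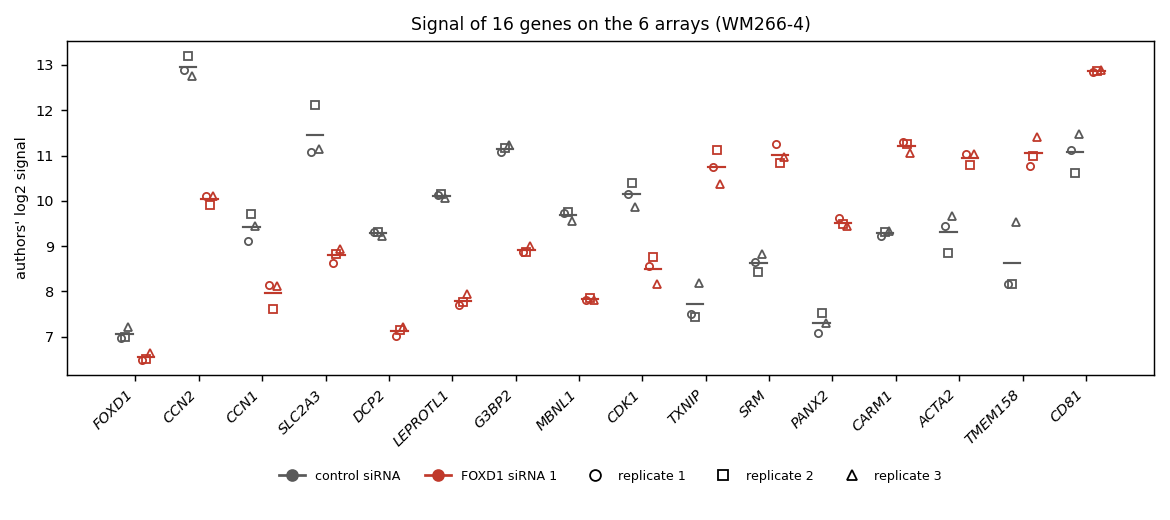
Authors' log2 signal of 16 genes on the 6 arrays (vertical axis), control siRNA in grey and FOXD1 siRNA 1 in red. Each symbol is 1 array, its shape gives the replicate number, and horizontal bars are group means. CCN2 read 12.75 to 13.20 with control siRNA and 9.91 to 10.11 with siRNA 1, and TXNIP read 7.43 to 8.19 and 10.37 to 11.12.

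DCP2, the catalytic subunit that removes the mRNA cap, read 9.30, 9.31 and 9.23 with control siRNA and 7.02, 7.14 and 7.21 with siRNA 1, a 4.46-fold fall (SE 0.0869, limma adjusted p = 2.58e-07). G3BP2, an RNA-binding protein of stress granules, fell from 11.07, 11.16 and 11.23 to 8.86, 8.87 and 9.00, or 4.73-fold (SE 0.0879, adjusted p = 2.58e-07). MBNL1, a splicing regulator, fell from 9.74, 9.75 and 9.56 to 7.81, 7.86 and 7.81 (3.62-fold, adjusted p = 7.94e-07). In each of these the replicates of a group spanned a small part of the gap between the groups. Further probes of G3BP2 gave -1.90 and -2.09, and a further probe of MBNL1 gave -1.15. RPRD1A, which binds the C-terminal domain of RNA polymerase II, fell 3.02-fold.

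Of 26 measured genes of mRNA decapping and deadenylation, DCP2 alone fell and LSM4 alone rose, with a median of 0.02 (7.69% called, beside 20.2% of all genes). DCP1A, the decapping cofactor, read 8.09, 8.22 and 8.0 against 8.43, 7.95 and 8.07, and the change of 0.05 did not pass the test (adjusted p = 0.852). The LSM4 change of 0.35 was lost under 6 alternatives, among them background correction. Of 13 genes of the small RNA machinery, DICER1, the nuclease that makes miRNAs and siRNAs from their precursors, was the only one called (7.69%). It read 9.10, 9.41 and 9.17 with control siRNA and 8.29, 8.06 and 8.11 with siRNA 1, a 2.1-fold fall (adjusted p = 6.41e-05). Among 23 splicing factors of the SR and hnRNP kinds only SRSF7 was called (4.35%), and it fell 1.71-fold. In the fit with the replicate number as a block, 2 decapping genes rose and 2 fell, and 2 splicing factors fell. Over all 13775 genes that fit called 3779, with 1953 higher and 1826 lower. The blocked counts of the lists below are to be read beside these totals.

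SLC2A3, the glucose transporter GLUT3, read 11.07, 12.11 and 11.15 with control siRNA and 8.62, 8.83 and 8.94 with siRNA 1, a 6.26-fold fall (SE 0.225, adjusted p = 2.67e-05). Control replicate 2 stood highest, yet each siRNA 1 array was below each control array. LEPROTL1, a membrane protein of the endosomal system, fell from 10.12, 10.15 and 10.07 to 7.69, 7.77 and 7.93 (4.98-fold, adjusted p = 2.58e-07). MCAM, the melanoma cell adhesion molecule CD146, fell from 9.07, 9.37 and 9.04 to 7.79, 7.47 and 7.76 (2.8-fold, adjusted p = 1.73e-05). VGF, the precursor of secreted neuropeptides, fell 3.12-fold, CLDN12, a claudin, 3.33-fold, HEG1, a transmembrane mucin-like receptor, 3.29-fold, and TGFBR3, the coreceptor betaglycan, 2.73-fold. CYGB, the haem protein cytoglobin, fell 3.29-fold and CTSG, the serine protease cathepsin G, 3.21-fold. The CTSG values of replicate 3, 9.82 and 8.28, were the highest of each group, and its call was lost with trended, robust moderation.

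The rest of the 25 largest falls were GPR180, ANKS1A, AMMECR1, CDK1, CEP55, FGF13, UBL3, IFNLR1, BNIP3L and ASAP2, by 2.74-fold to 3.43-fold. CDK1 is described with the mitotic genes below, and CEP55 is a protein of the last step of cytokinesis. BNIP3L is a mitochondrial receptor for autophagy, IFNLR1 a receptor chain for interferon lambda and ASAP2 a GTPase-activating protein for ARF. For the 25 falls SEs ran from 0.0857 to 0.317 and adjusted p from 2.58e-07 to 0.00343. Other probes of ASAP2, BNIP3L, CDK1, IFNLR1 and RPRD1A also fell by their own test, while other, dimmer probes of FGF13 (-0.21) and GPR180 (-0.37) did not pass it. For AMMECR1, 1 other probe fell (-1.06) and a probe near the floor did not (-0.01).

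The largest rise was that of TXNIP, the thioredoxin-interacting arrestin that lowers glucose uptake. It read 7.51, 7.43 and 8.19 with control siRNA and 10.75, 11.12 and 10.37 with siRNA 1. The lowest siRNA 1 array was more than 2 log2 units above the highest control array, and the rise of 3.04 is 8.21-fold (SE 0.212, limma adjusted p = 8.63e-06). ARRDC4, an arrestin related to TXNIP, rose from 6.74, 6.67 and 6.76 to 7.40, 7.59 and 7.22 (1.6-fold, adjusted p = 0.000973). In the list of arrestins and hexose uptake genes that holds both, 2 of 13 members rose and 2 fell (30.8% called). The share called of all genes was 20.2%. In the blocked fit, with the replicate number as a block, 2 rose and 4 fell. The fallen members were SLC2A3 and SLC2A10, and the SLC2A10 change of -0.42 lost its call without control replicate 1 or 2 or without siRNA 1 replicate 1 or 2. SLC2A1, the glucose transporter GLUT1, changed by -0.48 and did not pass the test (adjusted p = 0.0516); with the replicate number as a block its adjusted p was 0.000868.

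TMEM158, a membrane protein first found as induced by oncogenic RAS, read 8.16, 8.17 and 9.53 with control siRNA and 10.77, 10.98 and 11.40 with siRNA 1. Control replicate 3 stood apart from the other controls, and the rise was 5.39-fold (SE 0.308, adjusted p = 0.000323). SRM, spermidine synthase, rose from 8.65, 8.42 and 8.83 to 11.25, 10.84 and 10.96 (5.22-fold, adjusted p = 1.64e-06). PANX2, a pannexin channel protein, rose from 7.07, 7.53 and 7.30 to 9.61, 9.49 and 9.45 (4.65-fold, adjusted p = 1.42e-06). For both, the siRNA 1 arrays lay about 2 log2 units above the controls. CARM1, an arginine methyltransferase that acts as a transcriptional coactivator, rose 3.75-fold from 9.23, 9.31 and 9.34 to 11.29, 11.25 and 11.06 (adjusted p = 8.38e-07).

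ACTA2, the smooth muscle actin of contractile cells, rose from 9.45, 8.84 and 9.66 to 11.03, 10.79 and 11.04 (3.11-fold, SE 0.176, limma adjusted p = 0.000113). CD81, a tetraspanin of the plasma membrane and of extracellular vesicles, rose from 11.13, 10.61 and 11.48 to 12.85, 12.86 and 12.89 (3.47-fold, adjusted p = 5.41e-05). The 3 siRNA 1 values of CD81 lay much closer together than its control values. PIP5K1C, which makes the lipid PIP2, rose 3.43-fold from 6.93, 6.91 and 6.98 to 8.69, 8.66 and 8.80. The kinases PAK4 (2.91-fold) and STK40 (3.1-fold, a pseudokinase), the Mediator subunit MED16 (2.96-fold), PTOV1 (2.89-fold) and the transcription factor MSC, also called musculin (2.89-fold), rose too.

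The other members of the 25 largest rises were LRP3, TYMSOS, PTMS, MRPS24, MFSD12, BTBD2, PNPLA6, LRFN3, ANKRD9, EVI5L, ZDHHC8 and GNG7, by 2.82-fold to 3.57-fold. MFSD12 is a transporter of melanosomes and lysosomes that bears on pigment, MRPS24 a mitochondrial ribosomal protein and PNPLA6 a lysophospholipase. TYMSOS is the transcript that lies opposite the gene of thymidylate synthase, TYMS. TYMSOS read 7.63, 7.77 and 7.91 with control siRNA and 9.52, 9.58 and 9.60 with siRNA 1 (3.47-fold, adjusted p = 1.42e-06). TYMS itself read 11.22, 11.26 and 11.04 against 11.47, 11.75 and 10.98 and did not pass the test (0.23, adjusted p = 0.394). For the 25 rises SEs ran from 0.0828 to 0.308 and adjusted p from 7.94e-07 to 0.000596. Other, dimmer probes of PAK4 (0.00 and 0.16), STK40 (0.21) and ANKRD9 (0.13) did not pass the test, while both other probes of MED16 rose.

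Folds over 1.5 times as large were obtained with background correction for 10 of these 50 genes. They were 12.6-fold for TXNIP, 8.2-fold for PANX2, 5.89-fold for LRP3, 7.43-fold for PIP5K1C, 4.77-fold for PAK4 and 4.57-fold for MSC among the rises. Among the falls they were 8.7-fold for DCP2, 5.56-fold for CYGB, 5.2-fold for CTSG and 4.96-fold for FGF13.

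Genes of DNA replication fell together. Of 16 genes of the replicative helicase and of origin licensing, 13 fell and 0 rose (81.2%, beside 9.63% of all genes lower), with a median of -0.63. CDC45, a subunit of the active helicase, read 10.26, 10.22 and 10.31 with control siRNA and 9.09, 9.16 and 8.97 with siRNA 1 (2.28-fold lower, SE 0.087, limma adjusted p = 1.04e-05). MCM6, a subunit of the helicase ring, fell 2.08-fold from 10.19, 10.55 and 10.35 to 9.25, 9.28 and 9.38 (adjusted p = 6.13e-05). For both genes the groups were well apart. MCM2, MCM3, MCM4, MCM5, MCM7, MCM10, CDT1, GINS2, GINS3, GINS4 and ORC1 also fell. ORC6 was among those that did not pass the test (-0.02, adjusted p = 0.925).

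At the replication fork, 16 of 20 genes fell and 0 rose (80% lower, beside 9.63% of all genes), with a median of -0.59. SLBP, which binds the stem-loop of histone mRNAs, fell from 9.33, 9.36 and 9.47 to 8.11, 8.12 and 8.24 (2.35-fold, adjusted p = 8.79e-06). RFC4, part of the clamp loader, fell from 9.63, 9.72 and 9.66 to 8.49, 8.66 and 8.53 (2.16-fold, adjusted p = 1.48e-05). POLE2, a subunit of DNA polymerase epsilon, fell 2.06-fold, the maintenance methylation factor UHRF1 2.00-fold and the flap endonuclease FEN1 1.98-fold. Falls were thus found in the polymerases, the clamp loader, the clamp PCNA itself and the chromatin assembly subunits CHAF1A and CHAF1B.

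Of 11 measured genes of homologous recombination and the Fanconi pathway, 7 fell and 0 rose (63.6% lower, beside 9.63% of all genes). Their median was -0.60. EXO1, a nuclease that resects DNA ends, fell from 8.74, 8.69 and 8.68 to 7.76, 7.90 and 7.70 (1.89-fold, adjusted p = 5.2e-05). FANCI fell 1.84-fold, BARD1 1.69-fold and its partner BRCA1 1.6-fold. With background correction the BARD1 fold was 2.7. Of 17 genes of nucleotide synthesis, 6 fell and 1 rose (41.2% called, beside 20.2% of all genes). RRM2, the regulated subunit of ribonucleotide reductase, read 7.93, 7.85 and 8.25 against 6.75, 7.05 and 6.63 (2.3-fold, adjusted p = 0.000131, and 5.11-fold with background correction). TK1, thymidine kinase, fell 1.81-fold and RRM1 1.8-fold. IMPDH2, an enzyme of guanine nucleotide synthesis, was the member that rose (1.28-fold), and its call was lost under 5 alternatives, among them background correction.

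Of 26 genes of the spindle, the kinetochore and mitotic kinases, 19 fell and 0 rose (73.1% lower, beside 9.63% of all genes). Their median was -0.77. CDK1, the kinase that drives entry into mitosis, read 10.16, 10.40 and 9.86 with control siRNA and 8.57, 8.75 and 8.16 with siRNA 1 (3.13-fold, SE 0.162, limma adjusted p = 6.41e-05). TOP2A, topoisomerase II alpha, fell from 10.43, 10.87 and 10.14 to 8.89, 9.63 and 8.61 (2.71-fold, adjusted p = 0.00162). In both groups replicate 2 was highest and replicate 3 lowest for each of these genes. HMMR, a microtubule-binding protein, fell 2.37-fold and SPC25, a kinetochore subunit, 1.96-fold. BUB1, a checkpoint kinase, fell 2.18-fold and KIF20A, a kinesin of cytokinesis, 1.96-fold. Both lost the call with background correction, with trended moderation and without some single arrays, control replicate 1 and siRNA 1 replicate 1 for both. With the replicate number as a block, the limma adjusted p was 3.2e-06 for BUB1 and 5.53e-06 for KIF20A.

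The mean signal of the 26 mitotic genes was 9.00, 9.20 and 8.71 with control siRNA and 8.18, 8.57 and 7.80 with siRNA 1. It thus differed among replicates of a group, and the pairs of equal replicate number differed by -0.82, -0.64 and -0.91. Blocking on the replicate number, 24 of the 26 fell, beside 1826 of all 13775 genes. CCNB1, the mitotic cyclin, was among the genes that the block alone called (-0.41, adjusted p = 0.209 without and 0.00369 with it). MKI67, a proliferation marker near the floor at 6.67, 6.80 and 6.68 against 6.57, 6.85 and 6.46, was not called by either fit.

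**Figure D3:**
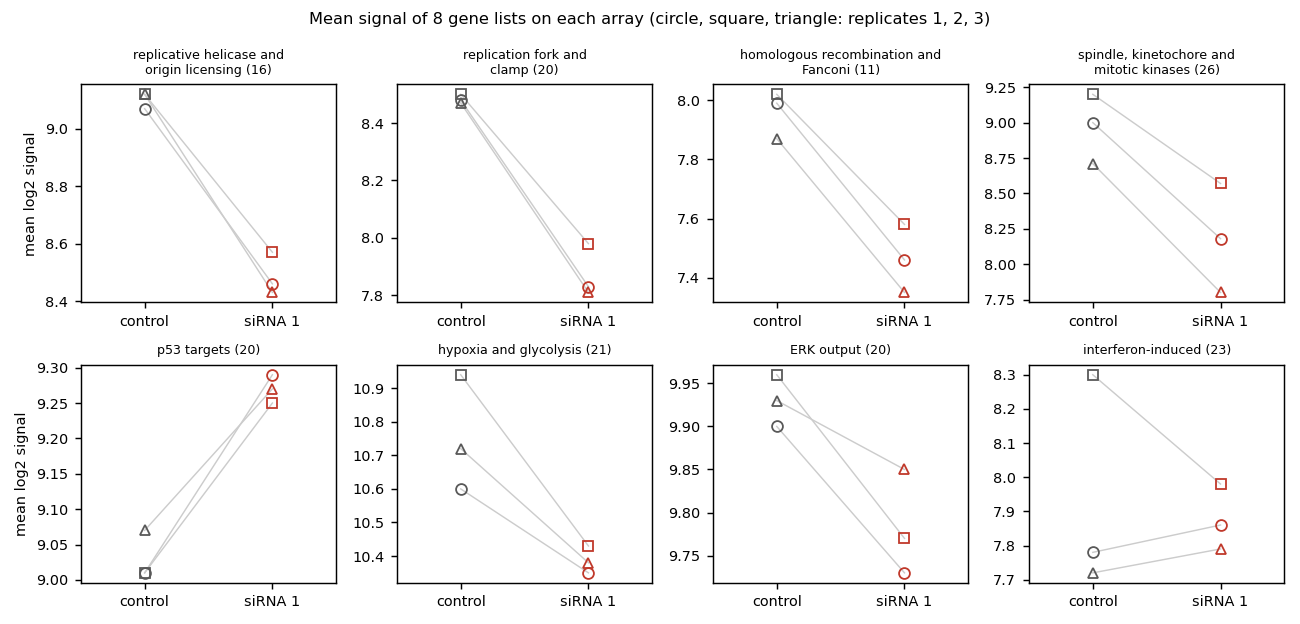
Mean log2 signal (vertical axis) of 8 gene lists on each array, control siRNA in grey at the left and siRNA 1 in red at the right of each panel, with lines joining arrays of the same replicate number and the number of measured genes in brackets. The replication, recombination and mitosis lists lay lower on every siRNA 1 array than on any control array, the p53 targets lay higher, and the interferon-induced genes overlapped. Each vertical axis has its own range and does not start at 0.

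Regulators of the cycle moved in both directions. Of 22 measured genes of the RB and E2F family, cyclins and CDK inhibitors, 5 rose and 5 fell, with a median of -0.04. Called members made up 45.5%, beside 20.2% of all genes. CDKN1A, the CDK inhibitor p21, rose from 12.57, 12.53 and 12.64 to 13.37, 13.42 and 13.46 (1.79-fold, SE 0.0826, limma adjusted p = 6.41e-05), whereas CDKN1B, the inhibitor p27, fell from 9.25, 9.26 and 8.71 to 8.18, 8.21 and 8.02 (1.91-fold, adjusted p = 0.000886). The groups did not overlap for either inhibitor. CCND3 (1.73-fold), E2F4 (1.53-fold) and CDK4 (1.47-fold) rose. CDK2 fell 1.8-fold and lost its call under 6 alternatives, among them background correction and leaving out control replicate 2. With the replicate number as a block its limma adjusted p was 2.54e-05. Of 14 replication-dependent histone genes (28.6% called), H2BC21, H2BC5 and H2AC6 rose and H4C3 fell.

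Among 20 measured p53 targets, 8 rose and 2 fell (40% higher, beside 10.6% of all genes), with a median of 0.22. Besides CDKN1A, the quinone reductase-like TP53I3 rose from 8.49, 8.22 and 8.52 to 9.38, 9.18 and 9.45 (1.9-fold, adjusted p = 0.000207). GADD45A, a stress-response inhibitor of growth, rose 1.83-fold, the nuclease AEN 1.63-fold and the pro-apoptotic BAX 1.37-fold. CCNG1 (1.49-fold) and TP53INP1 (1.38-fold) fell, against the direction of the list. MDM2, the ubiquitin ligase of p53, read 6.83, 6.98 and 6.81 against 6.97, 6.99 and 7.04 and did not pass the test (0.13, adjusted p = 0.364). CCNG1 lost its call when the probes of a gene were averaged.

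In the BCL2 family, 5 of 16 genes fell and 2 rose (43.8% called, beside 20.2% of all genes), with a median of -0.15. The pro-survival genes BCL2 (1.53-fold) and BCL2A1 (1.33-fold) and the pro-death genes PMAIP1 (1.65-fold), BID (1.41-fold) and BNIP3 (1.81-fold) fell, so that both kinds of member were lower. BCL2A1 lost its call without control replicate 1 or siRNA 1 replicate 1 or 2. BID lost its call with averaged probes.

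Of 19 measured genes of pigment synthesis and melanocyte identity, 2 rose and 3 fell, with a median of -0.08. The share called was 26.3%, beside 20.2% of all genes. MITF, the lineage transcription factor, read 9.23, 9.84 and 9.44 with control siRNA and 9.26, 9.51 and 9.10 with siRNA 1, and the change of -0.21 was not called (limma adjusted p = 0.391). Its groups overlapped. TYRP1, a melanosomal enzyme, rose from 7.17, 7.47 and 6.99 to 7.97, 8.83 and 7.84 (2-fold, adjusted p = 0.0081, lost with trended moderation, 3.08-fold with background correction). PPARGC1A, a coactivator of mitochondrial genes, rose 1.44-fold. SLC24A5, an ion exchanger of melanosomes, fell from 9.06, 9.01 and 9.15 to 8.38, 8.34 and 8.31 (1.66-fold, adjusted p = 0.000161). The falls of SLC45A2 (1.35-fold) and of MC1R, the melanocortin receptor (1.23-fold), were lost under several alternatives, among them background correction. The fit with the number as a block called 2 rises and 6 falls.

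Of 18 measured genes of the undifferentiated and invasive melanoma state, 2 rose and 3 fell, with a median of -0.12. Called members made up 27.8%, beside 20.2% of all genes. AXL, a receptor kinase high in that state, read 11.32, 11.11 and 11.09 with control siRNA and 10.87, 10.18 and 10.80 with siRNA 1 (1.47-fold lower, adjusted p = 0.0313). WNT5A, a secreted ligand, fell from 7.88, 7.46 and 7.82 to 7.12, 7.07 and 7.28 (1.48-fold, adjusted p = 0.00636). PDGFRB was detected on 3 of 3 control arrays and 0 of 3 siRNA 1 arrays, with values of 6.91, 7.17 and 7.26 against 6.48, 6.63 and 6.45, and was at least 1.44-fold lower (adjusted p = 0.00263). It passed the detection filter through the control arrays alone, so its call is only a description. Its limma adjusted p with no filter was 0.00259. A bound of this kind sets the brighter group's mean against the dimmest detected probe of the other arrays or the gene's own signal, whichever was higher. Such a bound carries no allowance for scatter among the arrays. The members thus went both ways: FOSL1, an AP-1 subunit, rose 1.41-fold and AKR1C3, a steroid reductase, 1.83-fold. AXL, FOSL1 and AKR1C3 each lost the call with background correction and without 1 or more arrays, siRNA 1 replicate 1 for FOSL1 and AKR1C3 and siRNA 1 replicate 2 for AXL. NGFR, a neural crest receptor, was not called (-0.17, adjusted p = 0.446).

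Of 20 measured genes that respond to ERK signalling, the pathway downstream of BRAF, 8 fell and 3 rose, with a median of -0.13. The share called was 55.0%, beside 20.2% of all genes. EGR1, an immediate early factor, fell from 10.28, 9.98 and 10.27 to 9.18, 9.04 and 9.72 (1.82-fold, limma adjusted p = 0.00309). The negative-feedback genes SPRY4 (1.75-fold) and DUSP6 (1.59-fold) and the ETS factor ETV5 (1.61-fold) fell. FOS fell 1.8-fold but lost the call under 6 alternatives, among them background correction. PHLDA2, an imprinted growth regulator, rose from 8.47, 8.44 and 8.39 to 9.54, 9.89 and 9.71 (2.43-fold, adjusted p = 1.51e-05). FOSL1 and MYC rose as well.

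Of 20 measured receptor tyrosine kinases and ligands, 7 fell and 0 rose (35% lower, beside 9.63% of all genes). Their median was -0.03. The falls include PDGFRB, which passed the detection filter through the control arrays alone. The growth factor HBEGF, an EGF receptor ligand, fell from 8.88, 9.24 and 9.17 to 7.84, 7.57 and 7.91 (2.5-fold, adjusted p = 4.07e-05). TGFA, another ligand of that receptor, fell from 9.69, 10.37 and 9.74 to 8.65, 9.31 and 8.94 (1.95-fold, adjusted p = 0.00478). FGF2, fibroblast growth factor 2, fell from 7.87, 7.91 and 7.89 to 7.20, 7.27 and 7.23, and TYRO3, a receptor of the AXL family, from 9.16, 9.27 and 8.90 to 8.48, 8.36 and 8.51. Both fell 1.58-fold. ERBB3 read 11.42, 11.55 and 11.14 against 11.88, 11.68 and 11.61, and the change of 0.35 did not pass the test (adjusted p = 0.058). With the replicate number as a block its adjusted p was 0.0129, so that 1 member of the list rose and 7 fell in that fit.

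Of 24 collagens and matrix glycoproteins, 2 rose and 2 fell, with a median of 0.00. The share called was 16.7%, beside 20.2% of all genes. VCAN, the proteoglycan versican, rose from 10.48, 10.45 and 10.60 to 11.59, 11.39 and 11.18 (1.84-fold, limma adjusted p = 0.000307), and THBS2, thrombospondin 2, rose 1.79-fold. LAMA4, a laminin chain, fell 1.78-fold. BGN, biglycan, fell 1.94-fold and lost its call under 5 alternatives, among them background correction and leaving out control replicate 1. Of 23 matrix proteases and inhibitors, 5 fell and 0 rose (21.7% called). CST1, a cystatin, fell 2.5-fold from 8.48, 7.45 and 8.43 to 6.81, 6.55 and 7.04 (5.54-fold with background correction). The collagenase MMP8 fell 1.65-fold and ADAM17, a sheddase of membrane ligands, 1.52-fold. Other probes of MMP8 (-0.09) and ADAM17 (-0.24 and -0.19) did not pass the test. In the blocked fit 4 collagen and glycoprotein genes rose and 4 fell, and 3 proteases and inhibitors rose and 5 fell.

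Among 17 integrins and cadherins, 2 rose and 2 fell (23.5% called), and 2 and 4 in the blocked fit. ITGB3, the beta subunit of the vitronectin receptor, fell from 10.15, 10.43 and 10.29 to 9.15, 9.06 and 9.51 (2.07-fold, adjusted p = 0.000215). ITGA5, the alpha subunit of the fibronectin receptor, rose from 9.34, 9.53 and 10.00 to 10.42, 10.56 and 10.51 (1.83-fold, adjusted p = 0.00161). The groups did not overlap for either. ITGA2 rose 1.44-fold, a call lost without siRNA 1 replicate 1, and ITGB8 fell 1.26-fold, a call lost under 10 alternatives. In the list of 20 contractile and SRF target genes, 3 rose and 4 fell (35% called, beside 20.2% of all genes). In the blocked fit 5 rose and 5 fell. SRF itself rose 1.66-fold and VIM, vimentin, 1.71-fold, beside ACTA2. The tropomyosins TPM1 (1.88-fold) and TPM2 (1.68-fold) fell. Another TPM2 probe gave -0.34 and did not pass the test (adjusted p = 0.0712).

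Of 20 TGF-beta and BMP genes, 4 fell and 1 rose (25% called, beside 20.2% of all genes). Their median was -0.02, and 5 fell and 2 rose in the blocked fit. TGFBR3 fell from 9.20, 9.76 and 9.16 to 7.80, 8.04 and 7.94 (adjusted p = 7.74e-05). The receptors TGFBR2 (1.31-fold) and BMPR2 (1.31-fold) and the mediator SMAD4 (1.25-fold) fell by smaller amounts, and each of these 3 lost its call with background correction and without siRNA 1 replicate 1. ID4, a BMP-responsive inhibitor of bHLH factors, rose 1.35-fold (2.05-fold with background correction). In the Wnt list, 3 of 24 rose and 4 fell (29.2% called), and the blocked fit called 6 higher and 4 lower. LEF1, the transcription factor of the pathway, fell from 12.31, 12.60 and 12.47 to 11.19, 11.21 and 11.44 (2.27-fold, adjusted p = 3.71e-05). AXIN2, a feedback inhibitor of the pathway, fell 1.35-fold and the receptor FZD7 1.67-fold, while AXIN1 rose 1.57-fold. Another FZD7 probe gave -0.10 and did not pass the test (adjusted p = 0.515). DKK1, a secreted inhibitor, rose 1.58-fold and lost the call under 9 alternatives, among them background correction.

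**Figure D4:**
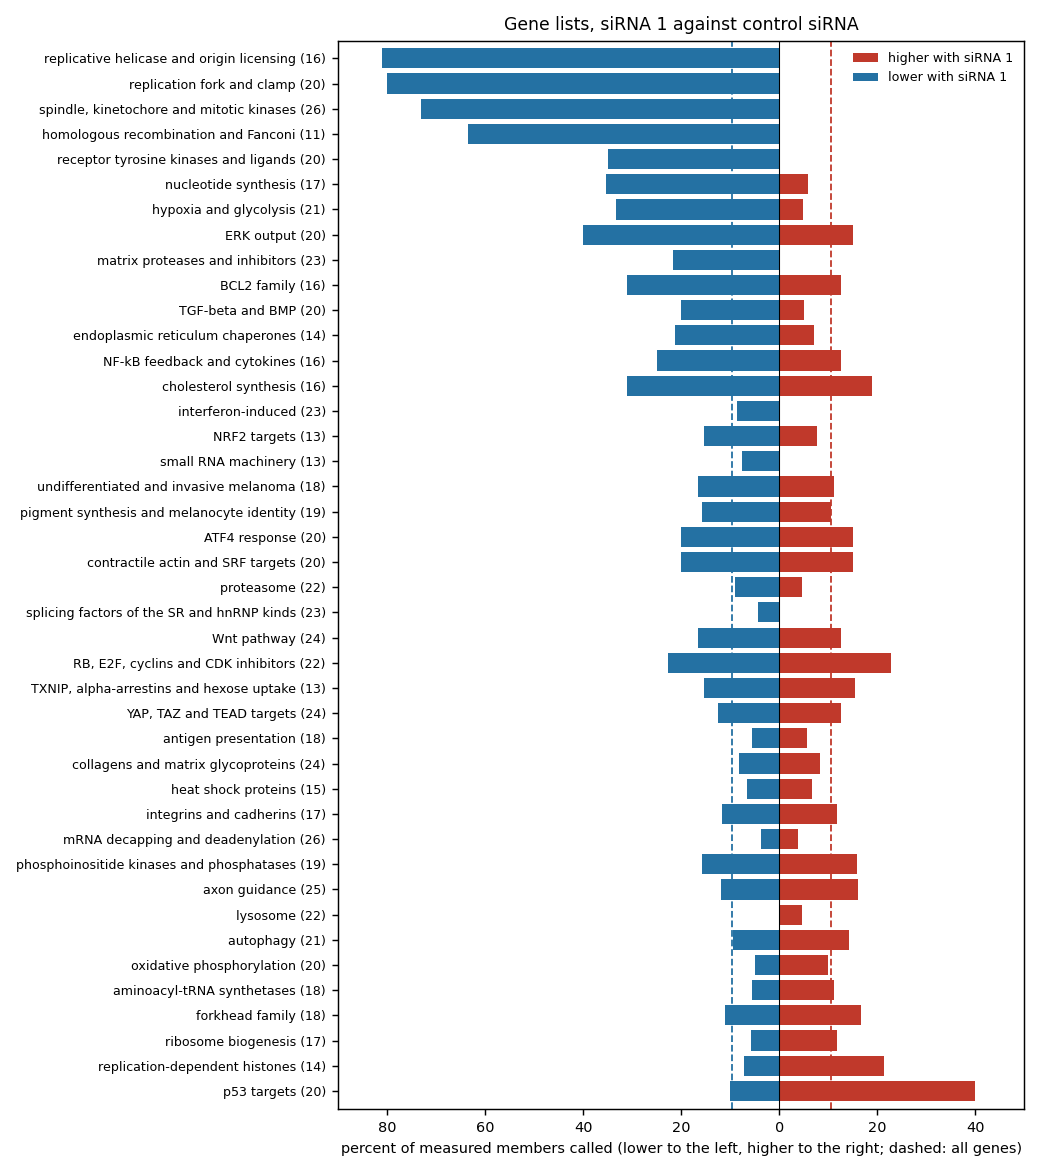
Percent of measured members called lower (blue, to the left) and higher (red, to the right) with siRNA 1 in each of 42 gene lists, with the number measured in brackets and dashed lines at the shares over all genes (9.63% lower, 10.6% higher). The replication, recombination and mitosis lists reach farthest to the left, with 63.6% to 81.2% of members lower, and the p53 targets farthest to the right, with 40% higher.

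Of 21 genes of hypoxia and glycolysis, 7 fell and 1 rose (38.1% called, beside 20.2% of all genes), with a median of -0.21. ANKRD37 fell from 7.98, 8.67 and 8.25 to 7.10, 7.28 and 7.31 (2.1-fold, limma adjusted p = 0.000596), the histone demethylase KDM3A fell 2.07-fold and ADM, the peptide adrenomedullin, 2-fold. For all of these control replicate 2 was highest. BNIP3L and BNIP3, both of them mitophagy receptors, fell, and the glycolytic enzyme GPI fell 1.39-fold but lost its call with background correction and without control replicate 2 or siRNA 1 replicate 1. In the cholesterol synthesis list, 5 of 16 fell and 3 rose (50% called). IDI1 (1.86-fold), HMGCS1 (1.65-fold), SQLE (1.59-fold) and MSMO1 (1.5-fold) fell, but other, dimmer probes of MSMO1 (-0.30 and -0.06) did not pass the test. LSS, lanosterol synthase, rose from 7.85, 7.93 and 7.87 to 9.06, 8.96 and 8.78 (2.07-fold, adjusted p = 3.73e-05) and PMVK rose 1.56-fold. Of 20 genes of oxidative phosphorylation, 2 rose and 1 fell (15% called), with a median of 0.02. TFAM, the mitochondrial transcription factor, was the gene that fell (1.71-fold).

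Of 20 ATF4 response genes, 3 rose (15%, beside 10.6% of all genes) and 4 fell (20%, beside 9.63%). In the blocked fit 3 rose and 7 fell. MTHFD2, a mitochondrial folate enzyme, fell from 9.33, 9.15 and 9.50 to 7.95, 7.88 and 8.51 (2.32-fold, limma adjusted p = 0.000365), DDIT3, the factor CHOP, fell 1.62-fold and CEBPB rose 1.75-fold. SLC7A11, the cystine transporter, rose 1.43-fold, a call lost under 5 alternatives with background correction among them. Of 14 endoplasmic reticulum chaperones and related genes, 3 fell and 1 rose (28.6% called, beside 20.2% of all genes). Only DNAJB9, a cochaperone, was called under every alternative (2.08-fold lower, from 9.67, 9.42 and 9.60 to 8.36, 8.54 and 8.61). Of 13 NRF2 targets, 1 rose and 2 fell (23.1% called). SLC7A11 was the one that rose. GCLM, a subunit of the glutathione-making ligase, fell 1.84-fold and HMOX1, haem oxygenase, 1.5-fold. Of 15 heat shock proteins, 1 rose and 1 fell (13.3% called), and with the replicate number as a block 3 rose and 1 fell.

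Interferon-induced genes, which can respond to foreign RNA, gave 0 rises and 2 falls among 23 measured (8.7% lower, beside 9.63% of all genes). The median was -0.06. The 2 falls, ISG20 (1.36-fold) and OAS3 (1.32-fold), were each lost with background correction. In the blocked fit 1 member rose and 2 fell. The mean signal of the list was 7.78, 8.30 and 7.72 with control siRNA and 7.86, 7.98 and 7.79 with siRNA 1, and control replicate 2 stood apart. Of 16 NF-kB feedback genes and cytokines, 4 fell and 2 rose (37.5% called, beside 20.2% of all genes). In the blocked fit 5 fell and 4 rose. ICAM1, an adhesion receptor, fell from 8.76, 9.63 and 9.13 to 7.96, 7.81 and 8.22 (2.26-fold, adjusted p = 0.00128), and the cytokine LIF fell 1.79-fold. The chemokine CCL2 fell 1.94-fold, a call lost with trended moderation, and CXCL8 1.55-fold, a call lost with background correction and without control replicate 1 or siRNA 1 replicate 1 or 2. The feedback inhibitors NFKBIA (1.57-fold) and TNFAIP3 (1.47-fold) rose. Of 18 antigen presentation genes (11.1% called), TAP1 rose 1.46-fold and HLA-E fell 1.33-fold, the latter lost with background correction. In the blocked fit 3 antigen presentation genes rose and 1 fell.

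In autophagy, 3 of 21 genes rose and 2 fell (23.8% called), and 5 and 2 in the blocked fit. ULK1, the initiating kinase, rose from 8.15, 8.35 and 8.52 to 9.76, 9.65 and 9.59 (2.51-fold, limma adjusted p = 1.74e-05). TP53INP2 rose 2.6-fold (6.15-fold with background correction) and WIPI2 1.75-fold. MAP1LC3B, the membrane-anchored LC3, fell from 9.32, 9.42 and 9.56 to 8.17, 8.25 and 8.54 (2.16-fold, adjusted p = 7.21e-05) and the receptor SQSTM1 1.42-fold. Of 22 lysosomal genes only ATP6V0D1, a subunit of the proton pump, was called (4.55%, beside 20.2% of all genes). It rose 2.54-fold from 8.35, 8.47 and 8.42 to 9.74, 9.81 and 9.73. Blocking on the replicate number, 3 lysosomal genes rose and 2 fell.

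In 3 lists of protein synthesis and turnover the shares called were 13.6% to 17.6%, beside 20.2% of all genes, and each rests on 3 called genes. Over all genes the share called was 34.6% at a mean log2 signal of 9 to 10, 30.7% at 10 to 11 and 19.1% from 11 up. Mean control signals were 9.12 to 9.20 for ribosome biogenesis, 10.55 to 10.67 for the synthetases and 11.28 to 11.44 for the proteasome. Of 17 ribosome biogenesis genes, BOP1 (1.63-fold) and RRS1 (1.47-fold) rose and UBTF fell 1.3-fold, a call lost with averaged probes. Of 18 aminoacyl-tRNA synthetases, AARS1 (1.47-fold) and GARS1 (1.32-fold) rose and WARS1 fell 1.67-fold, the last 2 lost with background correction. Of 22 proteasome genes, PSMB3 rose and PSMB5 and PSMB4 fell, all 3 lost with background correction. With the replicate number as a block the counts were 3 higher and 4 lower for ribosome biogenesis, 3 and 2 for the synthetases, and 1 and 4 for the proteasome.

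Of 25 axon guidance genes, 4 rose and 3 fell (28% called, beside 20.2% of all genes). PLXNB2, a semaphorin receptor, rose from 8.59, 9.17 and 9.16 to 10.19, 10.18 and 10.32 (2.39-fold, limma adjusted p = 0.000159) and PLXNA1 1.83-fold, while ROBO1, the slit receptor, fell 1.47-fold. In the blocked fit, 6 rose and 5 fell. Of 19 phosphoinositide kinases and phosphatases, 3 rose and 3 fell (31.6% called). Beside PIP5K1C, the regulatory subunit PIK3R1 fell from 8.54, 8.58 and 8.24 to 7.14, 7.45 and 7.50 (2.13-fold, adjusted p = 0.00015) and the phosphatase INPP4B fell 1.41-fold. INPP5D, another phosphatase, was detected on 0 of 3 control arrays and 3 of 3 siRNA 1 arrays and was at least 1.18-fold higher. Its call was lost under 6 alternatives. INPP5D, 1 of the 3 rises counted, passed the detection filter through the siRNA 1 arrays alone, so its call is only a description. Another INPP5D probe gave -0.03 (limma adjusted p = 0.908).

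Of 18 measured forkhead genes, 3 rose and 2 fell (27.8% called, beside 20.2% of all genes), with a median of 0.08. Besides FOXD1, FOXN2 fell from 10.09, 10.30 and 9.90 to 9.27, 9.30 and 9.31 (1.75-fold, limma adjusted p = 0.000402). FOXK1 rose from 7.56, 7.53 and 7.61 to 8.58, 8.38 and 8.23 (1.78-fold, adjusted p = 0.00025) and FOXN3 1.54-fold. FOXJ2 rose 1.21-fold, a call lost under 8 alternatives, among them background correction. FOXD2 read 10.06, 9.89 and 9.63 against 9.63, 9.49 and 9.53, and its change of -0.31 did not pass the test (adjusted p = 0.078). Blocking on the replicate number, 3 forkhead genes rose and 5 fell, and FOXD2 was among the called genes (adjusted p = 0.0236).

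The calls of some genes named above were lost when 1 array was left out. ISG20, AKR1C3, ITGB8 and DKK1 had adjusted p values of up to 0.188, 0.172, 0.165 and 0.164 with an array left out. For OAS3, PSMB3, FOXJ2, LSM4, PSMB4, SLC45A2, MC1R, FOS, AXL, IMPDH2, PSMB5, SMAD4 and CDK2 the highest such value was 0.112 to 0.151, for CXCL8 0.10, and for KIF20A, TGFBR2, INPP5D, SLC7A11, GARS1, BMPR2, BCL2A1, HLA-E, GPI, FOSL1, BGN, MYOF, WARS1, BUB1, SLC2A10 and ITGA2 it was 0.0520 to 0.0999. Over the 221 called genes that the naming rule selects, leaving out siRNA 1 replicate 1 ended 39 calls, siRNA 1 replicate 2 ended 27 and siRNA 1 replicate 3 ended 20. Leaving out control replicates 1, 2 and 3 ended 28, 29 and 17. Some changes rest on the brightest probe of a gene. For FGF2, GCLM, SPC25, PIK3R1, PLXNB2, TP53I3, CDKN1A, FOXK1 and LSS, other probes with a mean log2 signal below 7 did not pass the test. Background correction gave larger folds for several dim genes beyond those already given: 3.22-fold for ANKRD37, 3.73-fold for CCL2, 3.07-fold for ARRDC4, 2.82-fold for PDGFRB, 2.46-fold for BCL2, 2.38-fold for TNFAIP3, 2.78-fold for H2BC5 and 2.65-fold for H2AC6.

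Some called genes were detected on all arrays of a group and on none of the other. This held for 19 genes detected with control siRNA only and for 12 detected with siRNA 1 only. They passed the detection filter through the group where they were high, so their number and their calls are only descriptions. With no filter on detection all 19 and all 12 were called too. B3GNT5, a glycosyltransferase, read 7.26, 7.14 and 7.12 with control siRNA and 6.62, 6.48 and 6.49 with siRNA 1 and was at least 1.5-fold lower. CLCA2, a transmembrane protein that p53 is known to induce, read 6.43, 6.41 and 6.52 against 7.08, 7.03 and 7.15 and was at least 1.44-fold higher. LHX2, a LIM homeobox factor, was at least 1.48-fold lower. The cancer-testis genes MAGEB6 and MAGEB2 were at least 1.31-fold and 1.28-fold higher. B3GNT5, CLCA2, LHX2, MAGEB6 and MAGEB2 were picked for this description after their values were seen.

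The promoters of TXNIP, CCN2 and CDK1 are printed. TXNIP and CCN2 had the largest rise and the largest fall by the authors' values, and CDK1 had the largest fall of the mitotic list. Each runs from 250 bases before to 50 bases after the transcript start given by RefSeq for GRCh38.p14, 5′ to 3′ on the strand of the gene. Capitals mark matches, on either strand, to the letters GTAAACA (forkhead), GGAATG (TEAD), TTTGAA (the CHR of cell cycle genes), CCAAT (NF-Y), CACGTG (E-box) and TTTGGCGC, TTTCCCGC or TTTCGCGC (E2F).
TXNIP, chr1:145996530-145996829, minus strand: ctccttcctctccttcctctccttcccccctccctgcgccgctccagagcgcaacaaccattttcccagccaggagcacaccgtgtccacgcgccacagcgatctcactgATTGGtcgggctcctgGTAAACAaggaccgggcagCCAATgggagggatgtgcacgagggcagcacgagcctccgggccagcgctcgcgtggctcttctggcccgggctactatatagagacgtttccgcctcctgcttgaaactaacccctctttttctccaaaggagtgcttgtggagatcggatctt
CCN2, chr6:131951323-131951622, minus strand: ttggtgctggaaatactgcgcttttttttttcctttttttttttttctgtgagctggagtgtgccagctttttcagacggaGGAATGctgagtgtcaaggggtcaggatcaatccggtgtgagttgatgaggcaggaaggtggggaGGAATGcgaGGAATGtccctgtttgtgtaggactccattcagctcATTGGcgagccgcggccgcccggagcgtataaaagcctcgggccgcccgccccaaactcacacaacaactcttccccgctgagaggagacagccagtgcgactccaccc
CDK1, chr10:60778081-60778380, plus strand: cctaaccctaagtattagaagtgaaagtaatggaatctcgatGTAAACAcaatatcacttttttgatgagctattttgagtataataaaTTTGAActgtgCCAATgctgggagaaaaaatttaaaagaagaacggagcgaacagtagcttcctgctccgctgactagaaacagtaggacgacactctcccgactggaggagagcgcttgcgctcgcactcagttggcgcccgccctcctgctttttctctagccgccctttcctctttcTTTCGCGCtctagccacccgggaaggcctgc
In TXNIP the forkhead letters start at -124 and CCAAT at -105, with CCAAT on the other strand at -140. In CCN2 the TEAD letters start at -169, -104 and -95, with CCAAT on the other strand at -59. CDK1 holds the forkhead letters at -208, CHR at -161, CCAAT at -150 and E2F letters at 20. Positions are counted from the transcript start, and no 2 matches overlap in these windows. A match describes letters only.

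Promoter windows were matched for 10587 of 12775 protein-coding genes tested (82.9%). The forkhead letters stood in 2.23% of all of these windows, in 1.98% for genes that rose and in 2.94% for genes that fell. For changes of at least 2-fold they stood in 4.0% of windows for rises and 3.26% for falls. CHR letters stood in 10.6% of all windows, in 13.2% for genes that fell and in 19.6% of the 92 windows of genes that fell at least 2-fold. CCAAT stood in 36.9% and 54.3% of the same windows. For the mitotic list, 15 of 22 windows (68.2%) held CHR letters and 17 held CCAAT. Forkhead letters stood in 1 of these 22 windows (4.55%), that of CDK1, and E2F letters in 2 (9.09%). For the helicase list, 9 of 13 windows (69.2%) held E2F letters, beside 4.37% of all. Forkhead letters stood in 0 of the 13 helicase windows and in 0 of 19 windows of the replication fork list. The median GC content was 64.7% over all windows, 66.3% for genes that rose and 71.5% over the 100 windows of genes that rose at least 2-fold. These shares are descriptions with no test, and genes of the cell cycle make up part of the falls.

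The siRNA 2 arrays show which of the changes differed between the 2 oligonucleotides. In the direct test of siRNA 1 minus siRNA 2 on the 9 WM266-4 arrays, 1304 of the 13775 genes were called (9.47%), 534 higher (3.88%) and 770 lower (5.59%) with siRNA 1. With the replicate number as a block these counts were 2360, 1134 and 1226. Without siRNA 1 replicate 1 they were 760, 266 and 494, without siRNA 1 replicate 3 the total was 843 and the higher count 305, and without siRNA 2 replicate 1 the higher count was 342. Higher calls numbered 313 with background correction. FOXD1 was not lower with siRNA 2, and the labels of its arrays are not settled.

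CCN2 was low with both. It read 9.74, 9.75 and 9.96 with siRNA 2, and the difference between the siRNAs was 0.22 (adjusted p = 0.293). CCN1 read 7.56, 7.29 and 7.50 with siRNA 2, with a difference of 0.51 (adjusted p = 0.0676). ANKS1A, VGF, HEG1, CYGB, CTSG and IFNLR1 were the other large falls for which the difference did not pass the test, and a missed threshold does not show that the siRNAs act alike. For ANKS1A the difference was 0.01 and for VGF -0.13.

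The other 17 of the 25 largest falls were lower with siRNA 1 than with siRNA 2 by the direct test, beside 5.59% of all genes. The 25 falls were picked for their low values on the siRNA 1 arrays, which the direct test uses again. A difference in that direction was thus favoured beforehand, and the count is only a description. Among the 17, SLC2A3 (-1.32), MCAM (-1.03), TGFBR3 (-0.72), MBNL1 (-0.62) and ASAP2 (-0.54) were also called lower with siRNA 2 against control. The rest of the 17 were not. SLC2A3 read 9.83, 10.18 and 10.37 with siRNA 2, between its siRNA 1 and control values. G3BP2 read 11.19, 11.15 and 11.23 with siRNA 2, among its control values, and the difference was -2.28 (limma adjusted p = 1.41e-08). LEPROTL1 read 9.90, 9.85 and 9.95 with siRNA 2 (difference -2.10, adjusted p = 3.04e-08) and DCP2 9.03, 9.27 and 8.84 (difference -1.92, adjusted p = 6.13e-07). These 3 genes read near their control values with siRNA 2. GPR180 (-1.76), CLDN12 (-1.75), UBL3 (-1.76), CDK1 (-1.75) and CEP55 (-1.66) differed by similar amounts. DICER1 also differed, by -1.16 (adjusted p = 1.88e-05).

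Of the 25 largest rises, 10 were higher with siRNA 1 than with siRNA 2 by the direct test, beside 3.88% of all genes. The other 15 did not differ beyond the threshold. The rises, like the falls, were picked on the siRNA 1 arrays, so these counts are only descriptions. ACTA2 read 9.59, 8.59 and 9.85 with siRNA 2, all below its siRNA 1 values, and the difference was 1.61 (limma adjusted p = 0.00227). TXNIP read 9.55, 10.18 and 9.46 with siRNA 2, between the control and the siRNA 1 values, with a difference of 1.02 (adjusted p = 0.0152). CD81, PTMS, MRPS24 and LRP3 differed by -0.02 to 0.03 (adjusted p from 0.943 to 0.980). Each siRNA group was set against the same 3 control arrays, so agreement between those contrasts is not independent. With siRNA 2, 23 of the 25 rises and 13 of the 25 falls were called in the same direction. The share of all genes called with siRNA 2 against control is not given here, so these counts are only descriptions.

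**Figure D5:**
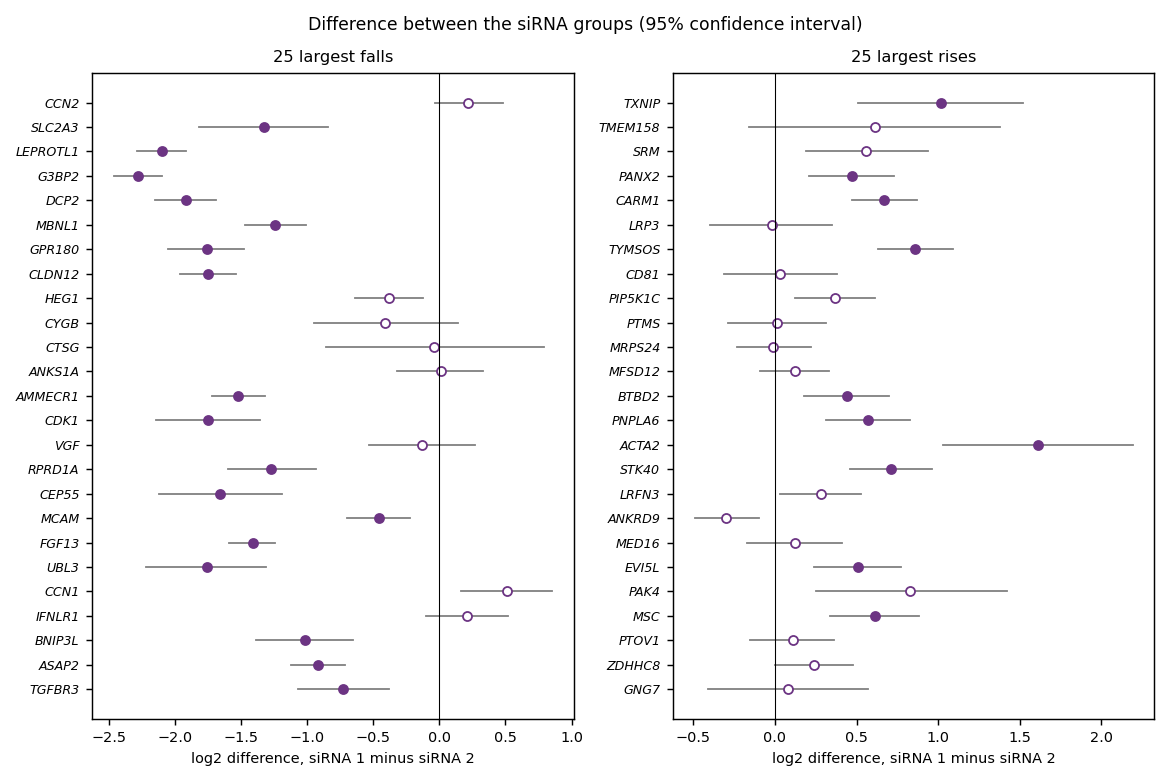
Log2 difference, siRNA 1 minus siRNA 2 (horizontal axes), for the 25 largest falls (left) and the 25 largest rises (right) of siRNA 1 against control, with unadjusted 95% confidence intervals. Filled points pass the adjusted test over all genes. The genes were picked on the same siRNA 1 arrays. G3BP2 at -2.28 and LEPROTL1 at -2.10 lie farthest to the left, CCN2 at 0.22 lies near 0, and ACTA2 at 1.61 lies farthest to the right.

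The replication and mitosis lists differed between the siRNAs as well. By the direct test, 14 of the 16 helicase and licensing genes, 17 of the 20 fork genes, 8 of the 11 recombination genes and 20 of the 26 mitotic genes were lower with siRNA 1 than with siRNA 2, beside 5.59% of all genes. Among the p53 targets 8 of 20 were higher with siRNA 1 and 2 were lower, beside 3.88% and 5.59%. CDKN1A differed by 0.90 (adjusted p = 3.14e-05). For the interferon-induced genes 0 of 23 passed the test.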

How the data were processed

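Each array's probe intensity is on a linear scale and was deposited unnormalised with a detection p-value per probe, per the file headers. The log2 values analysed are the authors' processed table: set against the deposited intensities they were log2 after quantile normalisation within WM266-4 with no background subtraction (largest difference 0.00746). The scanner software and the way the detection p-values were computed are not given in the sources used here. This table, not the scanner values, is the main setting because the genes described are defined on it. Of 48107 probes 8 lacked a value, 30108 had a single symbol in the platform annotation, 8 several and 17983 none, and 30069 were matched to RefSeq (GRCh38.p14). On the 6 arrays 48.0% to 50.4% of probes were detected and the median intensity was 94.4 to 104. The number of arrays limits the precision.

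A gene was read by its detected probe with the highest mean. limma 3.58.1 (R 4.3.3) was run with lmFit and eBayes (4 residual and 6.88 prior degrees of freedom), with Benjamini-Hochberg adjustment over all 13775 genes, and every adjusted p is from limma. The filter left out 4304 genes detected on 0 arrays and 1965 detected on 1, and 1086 entered with 2. siRNA 1 minus siRNA 2 was fitted on 9 arrays. The scripts were tested on simulated data with independent noise on each array, which leaves out the pairing of replicates.

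Named genes are FOXD1 and CCN2, the 25 largest rises and falls among called genes detected on all arrays of the higher group with no overlap of the groups, and up to 6 called members of each of 42 lists (782 genes tested). Other genes were named after their values were seen. Members, lists and tests were chosen with earlier results of these data known, so none is independent support for a direction. Replicate numbers paired the arrays: deviations from the group means correlated at 0.24, 0.40 and 0.41 for equal numbers and at most -0.09 otherwise. Deviations from a mean cancel within a group, so positive values for equal numbers force negative ones elsewhere, which are not separate evidence. The replicate number was used as a block in an alternative. Other alternatives were background correction with normexp (offset 16), median centring, detection on 3 arrays or no filter, 9 arrays in the fit, trended and robust moderation, the mean of a gene's probes, and leaving out each array.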

Additional observations from a re-analysis of the deposited data

Results flagged for a closer look

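Among probes without a gene symbol in the platform annotation, which enter no comparison of genes, 422 of 7946 detected probes were called (5.31%, limma). The largest rise was that of probe ILMN_1726565, which read 8.50, 8.37 and 8.90 with control siRNA and 11.45, 11.38 and 11.32 with siRNA 1. The change was 2.79 on the log2 scale (SE 0.118, adjusted p = 4.72e-09), higher in 3 of 3 arrays. Probe ILMN_2408796 read 8.34, 8.30 and 8.50 against 10.17, 10.04 and 10.09, a change of 1.72 (SE 0.0893, adjusted p = 2.78e-08), also higher in 3 of 3 arrays. Both drew attention as a signal above control in data outside the gene comparison, and their genes were not identified here.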

How the results depend on the processing

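The number of genes called was 2783, and 1971 to 2835 under every alternative but the replicate block, which gave 3779 and kept all 2783. The block ended no call. It added calls to many lists, and the list counts that it moved by over 1.5 times stand beside the results. Called genes of at least 2-fold numbered 234, 199 to 286 with an array left out, and 623 with normexp background correction, which stretches dim genes. Median centring moved the share of rises among called genes from 52.4% to 56.4%. List members called were 71 higher and 163 lower, and 54 to 69 and 125 to 156 with an array left out. For siRNA 1 minus siRNA 2, the pairing of replicates as a block raised the count from 1304 to 2360, with 1134 higher and 1226 lower. With an array left out it was 760 to 1107, with 266 to 421 higher and 494 to 688 lower, and with background correction 313 were higher. Of 221 named calls, 169 held under all alternatives and 0 reversed. The most were lost without siRNA 1 replicate 1 (39) and with background correction (38). The cause of these losses was not tested. Of 934 called genes with another probe, it was called the same way for 413 and the opposite way for 5. For 158 another probe changed in the opposite direction, whether called or not. Genes below a mean log2 signal of 7 lie near the floor, where calls were fewest.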
